A study of Homo sapiens with 7 samples.

Results

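H3K36me3 intervals that touched an H3K4me3 interval were examined in HCT116 cells, an established line of human colorectal carcinoma. An interval was a member if it was under 30000 bp wide and overlapped, by at least 1 bp, both a protein-coding gene of GENCODE on hg19 and an interval of the H3K4me3 list. Of the 40010 H3K36me3 intervals, 39037 were under 30000 bp wide, 35936 of these overlapped a coding gene, and 1666 of these touched H3K4me3. The members were therefore 4.64% of the intervals that could have qualified, and the other 34270 are called the other intervals. The members were chosen by measured values, the width and position of the H3K36me3 and H3K4me3 intervals, so width, gene overlap and the contact itself are properties of the choice and not results.

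PIXUL-ChIP-seq is chromatin immunoprecipitation with sequencing in which chromatin is sheared by ultrasound in a 96-well culture plate. Cells were grown to 200000 cells per well, and the ChIP for each antibody came from a single well. Peak lists of 6 antibodies were used (H3K36me3, H3K4me3, H3K9Ac, H3K4me1, H3K27me3 and CTCF), with 1 library and so no biological or technical replicate of any mark. The 6 lists held 240889 intervals, and the sequencing depth behind them is unknown here.

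H3K36me3 is laid down by the methyltransferase SETD2, which travels with elongating RNA polymerase II, and it marks the bodies of transcribed genes. H3K4me3 is laid down by the SET1 and MLL complexes around the transcription start site (TSS) and marks active and poised promoters. In a long gene a stretch of chromatin with neither mark usually lies between them. The members are intervals that meet an H3K4me3 interval in the lists, which is not always the one over the TSS of the same gene.

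The edges of 8 members illustrate where the body mark began. Each line gives 120 bases of hg19, read 5′ to 3′ on the transcribed strand. It comes from a member of high fold enrichment among multi-exon or single-exon hosts, and lies wholly in an intron or wholly in coding sequence. The windows do not follow a strict ranking, and some members with higher values are not shown. The lower-case letters lie before the 5′ edge of the H3K36me3 interval and the capitals lie inside it. All of the letters fall within the H3K4me3 interval. The windows were chosen after the values had been seen. In the multi-exon genes FASN, SLC38A2, DDX5 and EEF2 the edge lay in intron 1.
FASN, chr17:80055008-80055127, minus strand, edge 1045 bp from the TSS: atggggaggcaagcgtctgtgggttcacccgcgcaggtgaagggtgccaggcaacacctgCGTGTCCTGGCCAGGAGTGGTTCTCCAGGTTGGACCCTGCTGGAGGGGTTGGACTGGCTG
SLC38A2, chr12:46765834-46765953, minus strand, edge 663 bp from the TSS: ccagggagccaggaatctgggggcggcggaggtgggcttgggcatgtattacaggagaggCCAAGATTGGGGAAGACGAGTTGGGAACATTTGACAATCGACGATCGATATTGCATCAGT
DDX5, chr17:62501275-62501394, minus strand, edge 1073 bp from the TSS: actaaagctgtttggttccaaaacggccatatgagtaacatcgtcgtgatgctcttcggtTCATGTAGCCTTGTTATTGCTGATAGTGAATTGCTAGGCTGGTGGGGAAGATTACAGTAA
EEF2, chr19:3984658-3984777, minus strand, edge 744 bp from the TSS: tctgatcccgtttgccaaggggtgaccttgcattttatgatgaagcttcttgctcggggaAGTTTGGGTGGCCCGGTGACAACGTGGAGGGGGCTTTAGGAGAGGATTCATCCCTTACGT

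In the single-exon genes IRF2BPL, FEM1A, SOX4 and IRF2BP1, which have no intron in their canonical transcript, the edge lay inside the coding sequence. These windows are shown because the same transition there falls on protein-coding bases.
IRF2BPL, chr14:77493416-77493535, minus strand, edge 1576 bp from the TSS: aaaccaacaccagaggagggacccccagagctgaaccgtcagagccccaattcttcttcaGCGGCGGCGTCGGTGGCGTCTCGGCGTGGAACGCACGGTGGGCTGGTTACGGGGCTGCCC
FEM1A, chr19:4792700-4792819, plus strand, edge 1014 bp from the TSS: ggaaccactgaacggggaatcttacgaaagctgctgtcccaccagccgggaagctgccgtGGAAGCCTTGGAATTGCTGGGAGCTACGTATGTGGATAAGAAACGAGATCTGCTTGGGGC
SOX4, chr6:21595296-21595415, plus strand, edge 1374 bp from the TSS: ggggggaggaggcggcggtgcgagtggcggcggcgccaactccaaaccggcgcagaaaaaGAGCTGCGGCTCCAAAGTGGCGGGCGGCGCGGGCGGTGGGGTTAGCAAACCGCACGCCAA
IRF2BP1, chr19:46388414-46388533, minus strand, edge 926 bp from the TSS: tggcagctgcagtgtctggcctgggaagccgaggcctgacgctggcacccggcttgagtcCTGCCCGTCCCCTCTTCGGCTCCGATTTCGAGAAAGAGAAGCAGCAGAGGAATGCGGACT

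The members lay over 1612 genes, here called hosts: the host is the coding gene that shares the most bases with the member. Hosts were 8.00% of the 20162 coding genes, and 49 of them held more than 1 member, with LMNA and PLEC holding 4 each. A second coding gene was overlapped by 506 members (30.4%), so the host is not always the gene whose promoter is touched. Hosts made up 12.6% of the coding genes of chromosome 17, 11.8% of those of chromosomes 16 and 22, and 2.65% of those of the X chromosome.

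The H3K36me3 fold enrichment of a member, a linear ratio over the background of the peak caller for the whole interval, had a median of 3.95 (quartiles 3.37 and 4.73), against 2.94 (2.74 and 3.22) for the other intervals. The median member was 7448.5 bp wide and the median other interval 2002 bp. The difference in fold enrichment was present within each of 6 width classes. Under 1000 bp the medians were 3.09 for 84 members and 2.77 for 9167 other intervals, and from 20000 to 30000 bp they were 4.23 for 206 members and 3.54 for 904 others. The share of intervals that were members rose over these classes from 0.908% to 18.6%. A q-value below 0.01 was held by 87.0% of members and 34.8% of the others. The stricter limits that the Methods set for this mark, a fold enrichment over 5 at a q-value under 1e-10, were passed by 66 members and 13 other intervals. These values come from the H3K36me3 library that the rule also read, and they are given as a description.

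The members with the highest fold enrichment lay over genes of lipid synthesis, signalling, translation and chromatin. FASN, the fatty acid synthase, was covered over 94.5% of its 19957 bp at a fold enrichment of 9.25, beginning 1045 bp past its TSS. TRIB1, a pseudokinase that scaffolds the ubiquitin ligase COP1, reached 8.93 and shared 3093 bp with its H3K4me3 interval. SLC38A2, an amino acid transporter, reached 8.61 and began 663 bp past the TSS.

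Translation was represented by RPL8, a protein of the large ribosomal subunit, at 8.45 and by EEF2, the elongation factor that moves the ribosome along the mRNA, at 7.91. The RPL8 interval began 71 bp past the TSS, the shortest distance of any member over its own promoter. H3-3B, which encodes the replication-independent histone H3.3, had a value of 8.34. DDX5, an RNA helicase, had 8.17. CDT1, a licensing factor of DNA replication, had 8.03 and shared 1845 bp with H3K4me3. HSPA8, the constitutive HSP70 chaperone, had 7.82 and began at 601 bp. Each of these members lay over its own promoter and on the downstream side.

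VWA8 had a higher value, 11.3, and stood apart from these. Its member, at chr13:42147811-42149403 and 1593 bp wide, lay 385842 bp past the TSS of a gene of 394286 bp. The H3K4me3 interval it touched had a fold enrichment of 5.87 and held no annotated start of any transcript.

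The side of the TSS was read for the members whose H3K4me3 interval held the TSS of the host. There were 1257 of these (75.5% of members). The whole H3K36me3 interval lay downstream of that TSS in 1232, or 98.0% (95% Wilson interval 97.1 to 98.6%, counting error only), across it in 8 and upstream in 17. This side is largely fixed by how members and hosts were chosen and is given as a description. A member must lie over its host, so it can be upstream of the TSS only where the gene extends past its canonical start, and an interval upstream of an isolated gene could not qualify. That requirement set aside 3101 intervals under 30000 bp, of which 148 touched H3K4me3, and in 22 of these the H3K4me3 interval held a coding TSS.

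In the 1232 downstream members the H3K36me3 interval began a median of 1190.5 bp past the TSS (quartiles 954.5 and 1453.2 bp). The H3K4me3 interval ended a median of 1543.5 bp past it (quartiles 1331.8 and 1870.5 bp) and its 5′ edge had a median position of -1020.5 bp, upstream of the TSS. The contact was narrow: the marks shared a median of 275 bp, and 648 members (52.6%) shared at most 300 bp. That median is below the mean fragment size that the study reports for HCT116 chromatin sheared by this method. Whether peak edges are resolved at that scale was not tested. An edge within 500 bp of the TSS was found in 39 members (3.17%), and an edge beyond 2000 bp in 75 (6.09%). BAHCC1 and HDGF had the most distant edges, at 5181 bp and 5112 bp, and there the H3K4me3 interval extended to 5319 bp and 5192 bp.

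**Figure D1:**
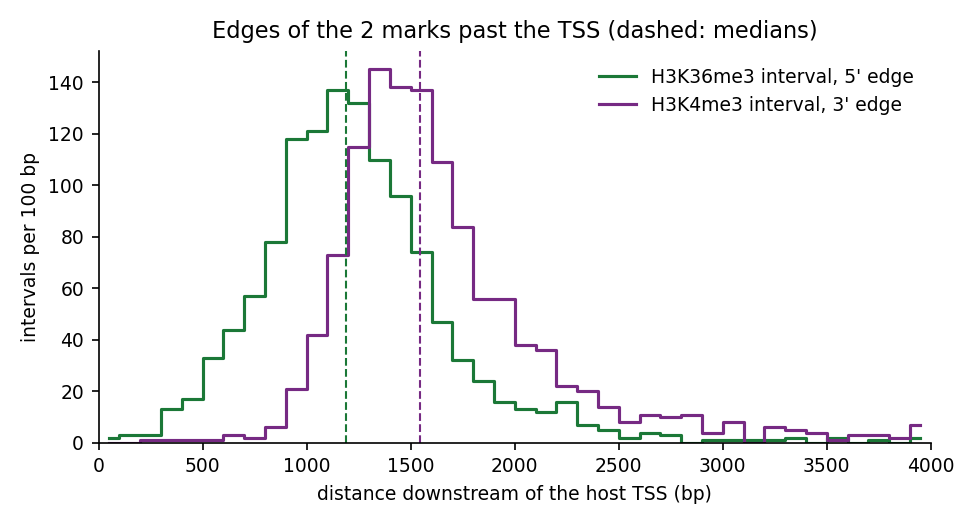
Number of the 1232 downstream members per 100 bp of distance from the host TSS, for the 5′ edge of H3K36me3 (green) and the 3′ edge of H3K4me3 (purple), with dashed lines at the medians. The green curve peaks before the purple one (medians 1190.5 and 1543.5 bp); 2 H3K36me3 and 28 H3K4me3 edges lie at 4000 bp or beyond and are not drawn.

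The edge did not fall at the end of exon 1. Exon 1 ended a median of 161 bp past the TSS, and H3K36me3 began a median of 983 bp past that end in the 1193 members over multi-exon hosts with an annotated exon 1. It began inside exon 1 in 29 of them (2.43%).

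The base composition changed across the edge. The 500 bp before it had a median of 52.6% G+C and 15 CpG, and the 500 bp after it 47.8% and 10 CpG. There were fewer CpG after the edge in 896 of the 1232 members (72.7%). The windows printed above show that single genes varied, since SOX4 held 8 CpG on each side of its edge and IRF2BPL held 1 before and 10 inside. Composition also falls with distance from any CpG-rich TSS, and its part in the position of the edge was not tested.

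At the other end, the member reached the 3′ end of the canonical transcript in 691 of the 1232 (56.1%) and ran past it by a median of 1738 bp. The median H3K36me3 edge moved from 955 bp past the TSS in the 43 members over hosts under 2500 bp to 1527 bp in the 87 over hosts of 100000 bp or more. The share reaching the 3′ end fell over the same classes from 83.7% to 4.60%. The width limit of 30000 bp fixes much of this fall, since a member that starts near the TSS cannot reach the end of a much longer transcript. It bounds the share of the gene covered in the same way, which had a median of 85.2% over hosts of 10000 to 20000 bp and 3.56% over hosts of 100000 bp or more.

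Many of the 17 upstream members lay over a neighbouring gene. In 10 of them a second overlapped gene had its TSS in the same H3K4me3 interval, and the member lay downstream of that TSS. HSPD1 and HSPE1, the mitochondrial chaperonin pair that share a promoter, gave the clearest case. The HSPD1 body had a member at a fold enrichment of 7.76, and a second member at 5.26 lay on the far side of the promoter, 512 bp past the TSS of HSPE1. PFKFB2 with YOD1 (edge at 1479 bp of YOD1) and WDPCP with MDH1 (1375 bp) had the same arrangement on opposite strands.

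Of the 8 members that crossed the TSS, RPL17-C18orf32 had the highest fold enrichment, 5.50. This is a readthrough gene, and the interval began 651 bp past the TSS of RPL17 itself. MLX, a partner of glucose-sensing transcription factors, was covered whole by a member that started 3146 bp before its TSS. C6orf62 was crossed by 282 bp. RASD1, RAPGEFL1, TPM4 and ZFP2 were also among the 8.

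A further 199 members (11.9%) touched an H3K4me3 interval that held the TSS of a coding gene other than the host. In 130 of them (65.3%) the member also overlapped that other gene, downstream of its TSS. The listed host was then a different gene on the same stretch, often on the opposite strand. The member over DIPK1A (fold enrichment 7.17) began 1082 bp past the TSS of RPL5, the one over DENND4C (6.46) began 485 bp past that of RPS6, and the one over METTL23 (6.30) began 343 bp past that of SRSF2, a splicing factor.

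Another 56 of the 199 did not overlap the gene whose promoter they touched. In 30 of these 56 the member reached the 3′ end of the host, so that the end of the host met the promoter of a neighbour. SIRT7, a sirtuin deacylase, was an example, with a fold enrichment of 6.16 and contact with the promoter of PCYT2.

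The remaining 210 members (12.6%) touched H3K4me3 intervals with no TSS of a coding gene. Their H3K4me3 intervals were weak, with a median fold enrichment of 6.24, against 26.2 where the host TSS was inside. In 70 the interval held the start of another transcript of a coding gene, in 26 only the start of a non-coding gene, and in 114 no annotated start. Hosts here were long, with a median of 51444 bp.

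Host length set the members apart from the other H3K36me3 intervals. The median host was 18204.5 bp long (quartiles 9191.5 and 42206.8 bp), against 93301 bp for the other intervals and 27220 bp for all coding genes. Hosts under 10000 bp underlay 28.0% of members and 2.67% of other intervals, while 26.1% of all coding genes are this short. Hosts of 100000 bp or more underlay 10.6% of members and 47.6% of others, with 18.2% of coding genes in that class. Long genes can hold many intervals away from the promoter, which raises their weight among the other intervals. Hosts of members had a median of 8 exons and those of the others 14.

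**Figure D2:**
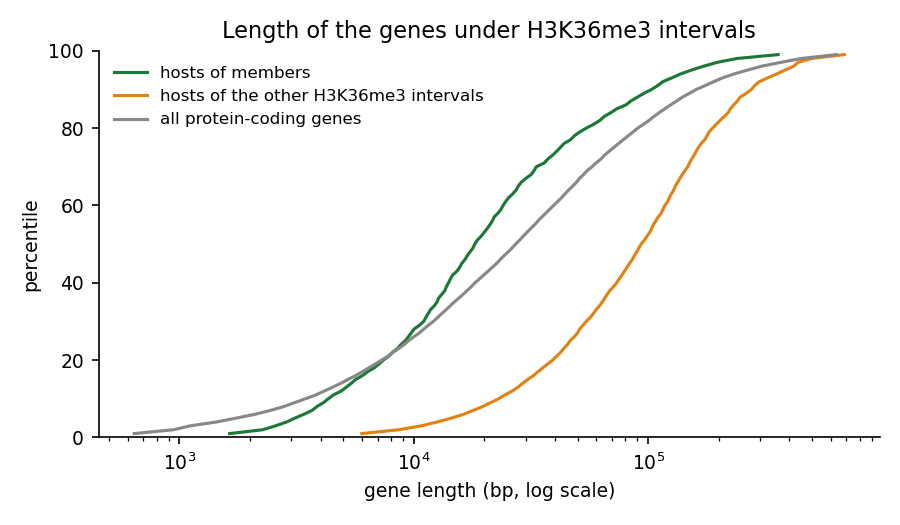
Percentiles (vertical axis) of gene length in bp (horizontal axis, log scale) for the hosts of members (green), the hosts of the other H3K36me3 intervals (orange) and all protein-coding genes (grey). The green curve has its median at 18204.5 bp, left of the grey curve at 27220 bp and far left of the orange curve at 93301 bp.

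The shortest hosts were INAFM1 (839 bp), MIF (845 bp) and UQCC4 (1005 bp). MIF, a small secreted cytokine, had a member of 3118 bp at a fold enrichment of 5.87 that began 738 bp past the TSS, so that most of the interval lay beyond the gene. INAFM1 had an H3K4me3 interval that reached 435 bp past the TSS and shared 56 bp with the member. Among the longest hosts were TBC1D5, a GTPase-activating protein, and DLGAP1, a postsynaptic scaffold. Both of these members lay far from the host TSS and touched H3K4me3 with no coding TSS.

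To count each gene once, the same question was put to genes. H3K4me3 covered the TSS of 12101 coding genes, and 9509 of these had an H3K36me3 interval under 30000 bp that began downstream of the TSS. The first such interval touched the H3K4me3 interval in 1461, which is 15.4% of the 9509 and 7.25% of all coding genes. In the other 8048 a gap of a median of 1654.5 bp separated the marks, and the gap was at most 500 bp in 22.5% of them.

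The touching share fell with every step in gene length, from 64.6% of 144 genes under 2500 bp through 29.9% of 981 genes of 5000 to 10000 bp to 4.88% of 1824 genes of 100000 bp or more. Touching genes had a median length of 13675 bp and genes with the marks apart 40493.5 bp. The first H3K36me3 interval began at a median of 1166 bp against 2956.5 bp, and the H3K4me3 interval ended at 1528 bp against 1199 bp. The order of these edges defined the split, so their difference is a description of it. In a gene under 2500 bp an interval inside the gene cannot start far from the TSS, so part of this order is fixed by the length itself. At the long end the width limit can lower the share. Intervals of 30000 bp or more were not read, so a gene touched only by such an interval was not counted as touching. With no width limit the rule gave 1900 members in place of 1666, with a median host length of 21958.5 bp. The touching share by gene length was not recomputed without the limit.

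**Figure D3:**
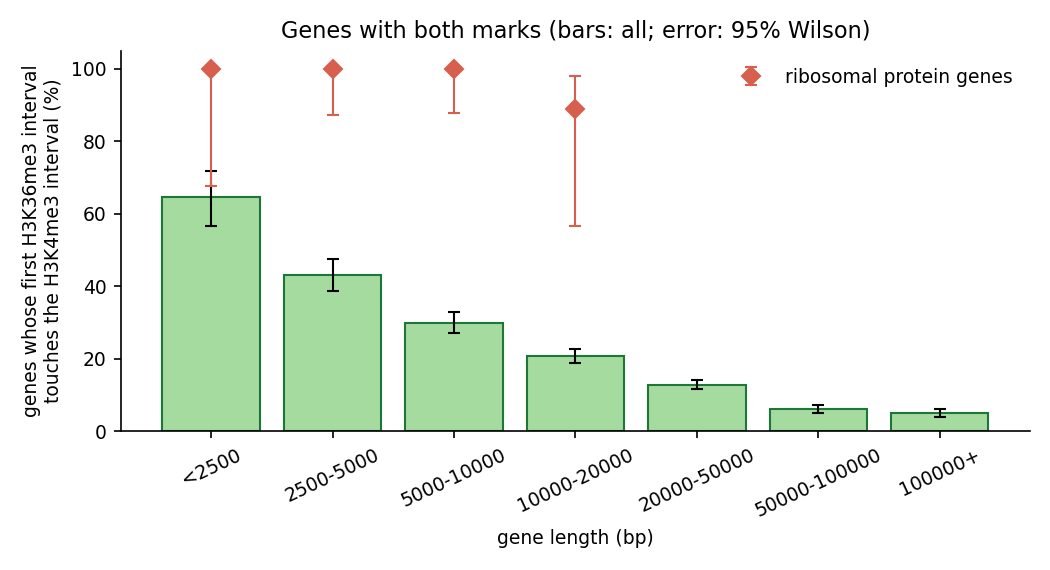
Share (%) of coding genes with both marks whose first H3K36me3 interval touched the H3K4me3 interval over the TSS, by gene length in bp, with 95% Wilson intervals; bars are all genes and red diamonds the ribosomal protein genes. The bars fall from 64.6% to 4.88% over all classes. The diamonds are drawn only for classes under 20000 bp and lie between 88.9% and 100%. Over those classes the bars fall from 64.6% to 20.8%.

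CpG density around the TSS was also a little higher in touching genes. In the bin centred 625 bp past the TSS it was 5.94 per 100 bp in touching genes and 4.98 in the others, while in the bin at 125 bp it was 10.3 in both. The curves did not meet further out, at 1.78 and 1.41 per 100 bp in the last bin, so the difference was not limited to the promoter.

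**Figure D4:**
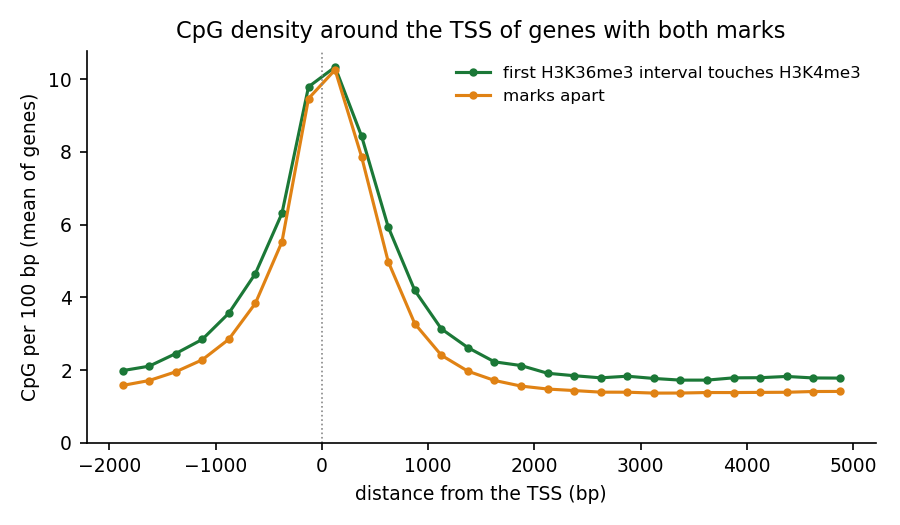
Mean CpG per 100 bp in bins of 250 bp against distance from the TSS in bp, for genes whose marks touched (green) and genes whose marks were apart (orange). The curves coincide at the peak near the TSS, at 10.3 in each, and the green curve lies above the orange one on both flanks.

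Ribosomal protein genes gave more hosts than any other of the 7 gene lists counted. Of the 89 genes of the cytoplasmic ribosome and their paralogs, 58 (65.2%) were hosts, beside 8.00% of all coding genes. In 81 of the 89 the first H3K36me3 interval touched the gene's own H3K4me3 interval, beside 7.25% of all coding genes. RPL8, described above, RPL4 and RPL13A had the highest fold enrichments, 8.45, 7.79 and 7.67. Their H3K36me3 began close to the TSS, at a median of 600 bp, with RPL13 at 252 bp, RPS3 at 325 bp and RPS12 at 354 bp.

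The difference was also present in each length class below 20000 bp. Under 2500 bp, 8 of 8 ribosomal protein genes with both marks touched, against 62.5% of 136 other coding genes. The 95% Wilson intervals of that class overlapped. From 10000 to 20000 bp it was 8 of 9 against 20.4% of 1644. The pooled groups below are not matched for length. The class of 10000 to 20000 bp held 9 of the 71 ribosomal protein genes and 1644 of the 3170 others. Among genes under 20000 bp with both marks, 70 of 71 ribosomal protein genes touched (98.6%, 95% Wilson interval 92.4 to 99.8%), against 858 of 3170 other coding genes (27.1%, 25.5 to 28.6%). The H3K36me3 edge lay at a median of 597 bp in the former and 1706 bp in the latter, and the H3K4me3 edge at 1628 bp and 1220 bp. The median fold enrichment of H3K36me3 was 5.46 against 3.54, and that of H3K4me3 was 25.7 against 23.5. The list members not counted as touching included RPS27L and RPL26L1, with gaps of 334 bp and 893 bp. RPL39L, RPL10L, RPL3L, RPS4Y1 and RPS4Y2 had no H3K36me3 interval. RPL10A was not counted because no interval began downstream of its TSS. Its H3K4me3 interval was still touched, by the member over FANCE, which ran over RPL10A with its 5′ edge at -13553 bp from the RPL10A TSS. Processed copies of ribosomal protein genes lie across the genome, so reads from their exons may be shared with those copies.

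Heat shock and polyubiquitin genes gave 10 hosts of 12 (83.3%, beside 8.00% of all coding genes), a higher share than the ribosomal list, and 12 of 12 touched their own H3K4me3 interval. These genes are short, with a median of 6147.5 bp, and 8.00% is not matched for length. Among all genes of 5000 to 10000 bp with both marks, 29.9% touched. HSPD1 had 7.76, HSP90AA1 7.64 and HSP90AB1, the constitutive HSP90, 6.79, with H3K36me3 edges at 422 bp, 634 bp and 561 bp. HSPA1A and HSPA1B are near-identical neighbours, and their values of 3.60 and 2.78 are uncertain for that reason. Glycolysis genes gave 5 hosts of 17 (29.4%, beside the same 8.00%) and 7 that touched. Of the 17, 5 had an H3K36me3 interval of 30000 bp or more, which the rule leaves out. ENO1 had 6.14, LDHA 6.00 and GAPDH 5.65, and the GAPDH edge lay at 464 bp.

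Immediate early and AP-1 genes, which are short and induced within minutes of a stimulus, gave 11 hosts of 28 (39.3%, beside 8.00% of all coding genes), with a median edge of 995 bp. The 8.00% is not matched for length or for H3K4me3. The list had a median length of 5726.5 bp, and all 28 genes had H3K4me3 over the TSS. Among all genes of 5000 to 10000 bp with both marks, 29.9% touched. KLF10, a zinc finger transcription factor, had the highest fold enrichment, 7.63, with an edge at 2340 bp. MYC, the growth-driving transcription factor, had a fold enrichment of 5.95 and an edge at 819 bp. MCL1, an anti-apoptotic BCL2 relative, had 5.07 and an edge at 857 bp. The members of IER2, IER3, IER5L and ZFP36 lay wholly inside H3K4me3, and that of IER2 began 3239 bp past the TSS.

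The 3 other lists gave 2 to 5 hosts each. Replication-dependent histone genes, which have no intron and whose mRNA lacks a poly(A) tail, gave 3 hosts of 64, and 58 of the 64 had no H3K36me3 interval. The hosts were H2AC6, H3C6 and H2AC25, at fold enrichments from 3.19 to 3.47. Zinc finger genes of chromosome 19, a family known for H3K36me3 together with H3K9me3, gave 5 hosts of 249 although 151 had an H3K36me3 interval, with ZNF561 the highest at 5.83. Enzymes that write or erase methylation of H3K36 and H3K4 gave 2 hosts of 20, SETD1A (4.04) and NSD1 (3.27). These enzyme genes are long, with a median of 110039.5 bp. Of the 20, 6 had an H3K36me3 interval of 30000 bp or more, which the rule leaves out. Beside 8.00% of all coding genes, the share of hosts was 4.69% of the histone list (95% Wilson interval 1.61 to 12.9%) and 2.01% of the zinc finger list (0.861 to 4.61%). For the enzymes the interval was 2.79 to 30.1%. The intervals of the histone and enzyme lists include 8.00%.

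Genes with a single exon were the host of 41 members, or 2.46% (95% Wilson interval 1.82 to 3.32%). The share was 0.219% among the other intervals and 5.77% among all coding genes. In 28 of the 41 every annotated transcript had 1 exon. The H3K4me3 interval held the host TSS in 36, and in 36 of these 36 the H3K36me3 interval lay downstream, from a median of 985.5 bp.

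IRF2BPL, a transcriptional regulator with a RING domain, had the highest fold enrichment of them, 5.81, and its member covered 47.4% of the gene and stopped before its 3′ end. FEM1A, a substrate adaptor of a cullin ubiquitin ligase, had 4.92 with 62.0% covered. SOX4, an HMG-box transcription factor, had 4.45, and its H3K4me3 interval reached 3302 bp into a gene of 4869 bp, with 1929 bp shared. IRF2BP1, a paralog of IRF2BPL, had 4.29 and an edge at 926 bp.

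TIGD5 had 5.59, TAF7, a subunit of TFIID, 4.59, ATXN7L3B 4.25, CENPB, the centromere protein that binds alpha satellite DNA, 4.21, and ITPRIPL2 4.18. ENSG00000170846 had 4.15. The single-exon label did not describe every case. The OR51B5 member, 4.52, lay in a gene span of 202209 bp with its 5′ edge at -161881 bp from the canonical TSS, upstream of it, and the ABHD16B member, 4.36, touched the promoter of another gene.

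Single-exon hosts differed from short multi-exon hosts less at the start than at the end. Among hosts under 10000 bp with the member downstream of their own TSS, the median edge was 995 bp in 29 single-exon and 1043.5 bp in 380 multi-exon genes, with quartile ranges that overlapped (780 to 1374 bp and 808.8 to 1268.2 bp). The member reached the 3′ end in 11 of the 29 (37.9%, 95% Wilson interval 22.7 to 56.0%) and in 307 of the 380 (80.8%, 76.5 to 84.4%). Fold enrichment was 3.60 against 4.35. IRF2BPL, CENPB, ATXN7L3B, RHOB, PURB and HNRNPA0 were among those that ended inside the gene.

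The other marks were read at the members, and the rule did not use them. H3K9Ac, an acetyl mark of active promoters, overlapped 98.9% of members and 12.7% of the other intervals (16.7% of all 35936). H3K4me1, which flanks promoters and marks enhancers, overlapped 96.1% and 16.3% (20.0% of all). CTCF, the insulator protein, overlapped 33.3% and 8.07% (9.24% of all). Most members touched an H3K4me3 interval that held a coding TSS, and H3K9Ac and H3K4me1 also lie at promoters. These shares therefore cannot be read as particular to H3K36me3. They were not split by the kind of contact, and their cause was not tested. Members were also wider than the other intervals, and the CTCF share depended on width. Among the other intervals it rose from 2.23% under 1000 bp to 35.2% from 20000 to 30000 bp. From 10000 to 20000 bp CTCF overlapped 38.4% of members and 25.7% of the others, a narrower difference. Members had the higher CTCF share in every width class.

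The bases shared by H3K36me3 and H3K4me3 in the 1232 downstream members lay in an H3K9Ac interval in 99.0%, in an H3K4me1 interval in 96.3% and in a CTCF interval in 10.6%. H3K9Ac and H3K4me1 ended further into the gene than H3K4me3, at medians of 2440.5 bp and 2326 bp past the TSS. H3K27me3, the Polycomb mark of silenced genes, was found there in 0 of 1232, which allows a share of up to 0.311% by the Wilson interval.

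H3K27me3 overlapped 22 members, 1.32%, and 47 of the other intervals, 0.137% (0.192% of all). In 20 of the 22 the H3K4me3 interval held no coding TSS, and 14 of the 22 were under 1000 bp wide. BCOR (fold enrichment 6.18, 319 bp), ASIP (5.95, 309 bp) and PRRG3 (5.55, 305 bp) were the highest. At BCOR the H3K27me3 interval had a fold enrichment of 6.74.

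These narrow members stood apart from the rest. Of the 24 members under 400 bp wide, 14 overlapped CTCF, 15 touched H3K4me3 without a coding TSS, and 9 lay in all 5 other lists. Across all members 20 lay in all 5 other lists (1.20%), while 4 of the 34270 other intervals lay in the 4 lists that remain without H3K4me3. Whether a signal common to all libraries underlies them was not tested. Without the 84 members under 1000 bp, 98.0% of those over their own promoter still lay downstream.

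Most contacts joined a single member to a promoter, but some promoters were met on both sides. Members touched 1685 H3K4me3 intervals, 10.5% of the 16112 in the list, and 67 of these were touched from both flanks. A coding TSS on each strand lay inside 29 of the 67. HNRNPA2B1 and CBX3, whose shared CpG island is a classic ubiquitously open promoter, had the highest pair by the lower of its fold enrichments, at 6.63 and 6.09 on either side of an H3K4me3 interval of 5740 bp. The chaperonin pair HSPD1 and HSPE1 described above was another, and NOC2L and KLHL17 had 4.50 and 4.80. NCAPD2 and GAPDH differed from these, since there the end of NCAPD2 (4.52) met the promoter of GAPDH (5.65). A whole H3K4me3 interval was covered by 108 members (6.48%).

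At the width limit, the widest member was the 29889 bp interval over RPS6KB1, with a fold enrichment of 3.37. The narrowest interval left out was the 30085 bp interval over TRIM13, with 3.74, which began 836 bp past the TSS. In all, 234 intervals of 30000 bp or more met the rest of the rule.

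Of the human genes that the study assayed by qPCR, 5 were looked up with the same measure, and OCT4 was not. In the study TBX3 was assayed in embryonic stem cells, and RPL32 was the reference transcript of the RT-qPCR. At EGR1, an immediate early transcription factor gene, the H3K36me3 interval began 1569 bp past the TSS and a gap of 697 bp kept it from H3K4me3. At UBE2B, a ubiquitin-conjugating enzyme, the gap was 901 bp. TBX3 had 3 H3K36me3 intervals, the nearest with a gap of 298 bp, and NR4A3 had none. At RPL32 the marks touched, with an edge at 498 bp and 1111 bp shared, in an interval whose host by shared bases was a neighbouring gene.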

How the data were processed

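HCT116 ChIP-seq peak lists, 1 per antibody, were analysed as deposited; H3K27Ac was not analysed here. Per the Methods, the authors used BWA 0.7.12 for alignment to hg19 and MACS2 for broad peaks (cutoff 0.1), while the submitters' processing notes name MACS 1.4.2. The deposited fold enrichment is a linear ratio for the whole peak, the deposited −log10 p-values and q-values are of the whole peak, and the deposited score is a rescaled −log10 q-value that was not used. No read counts were analysed, so depth is unknown, and peak edges depend on depth and on how the caller joins peaks.

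The TSS of the 20162 coding genes of GENCODE 44 (hg19) was the start of the canonical transcript, given for 19881, and otherwise the start of the gene. Gene length is the span of the gene. Overlaps required 1 bp. Shares have 95% Wilson intervals. No p-value was computed, since peaks of 1 library are not replicates. Python 3.11.15, numpy 2.4.6, pandas 2.3.3 and scipy 1.17.1 were used. On simulated data 1160 of 1160 planted members were recovered with their side, and 6 overlaps checked against bedtools 2.31.1 differed in 0 cases.

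Members and gene lists were chosen with earlier results of these data known. Genes named are those of highest fold enrichment in all, among single-exon hosts, by side and by list. Also named are those at the ends of host length and width, and 5 genes that the study assayed by qPCR. Others were picked after their values were seen. Some members that these rules select are counted but not reported here by name.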

Additional observations from a re-analysis of the deposited data

How the results depend on the processing

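With 1 library per mark, no replicate could be left out. No paired analysis was possible because there was a single library for every mark. Of 46 recomputed values, 26 stayed within 1.5 times the count or within the 95% interval of the share or median, and 20 moved; the cause was not tested except where the construction gives it. Number of members (1666): 66 with the limits of the Methods for H3K36me3, 1037 with at least 200 bp shared, 96 with at least 50% of the interval shared, and 1030 under 10000 bp wide, each a stricter choice. Median host length (18204.5 bp): 11365 bp, 16813 bp, 32360 bp and 13777.5 bp under the same settings in that order, 16872 bp with a q-value below 0.01, 17033 bp with the limits of the Methods for H3K4me3, 21958.5 bp with no width limit, 16528.5 bp over all overlapped coding genes and, added after seeing the data, 14605 bp by the canonical transcript. All of these lie below the 93301 bp of the other intervals, a value of the reported settings that was not recomputed under the changed ones. Single-exon share (2.46%): 0% of 66 with the limits of the Methods for H3K36me3, 4.17% with 50% shared, 3.88% under 10000 bp wide, and 1.68% where every transcript must have 1 exon. Downstream share (98.0%): 100% of 56 with those limits, 92.9% with 50% shared, and 84.2% when measured from the nearest start of any transcript, which by construction can lie past the edge. Leaving out members under 1000 bp wide or over H3K27me3, both added after seeing the data, moved none of the 4 values. Joining intervals within 1000 bp changed nothing, since no gap in the list is that short. Peak edges and the narrow contact depend on depth, which is unknown here.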
